A study of Mus musculus with 3 samples.

Results

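Shox2, Tbx3, Tbx18 and Isl1 are transcription factors of the sinoatrial node, the small region of the right heart in which the heartbeat starts. They were taken by symbol (ENSMUSG00000027833, ENSMUSG00000018604, ENSMUSG00000032419 and ENSMUSG00000042258) as 4 of the 28001 features counted in single cells of newborn mice, and their levels and joint detection were followed across cardiomyocytes, fibroblasts, endothelial cells and epicardial cells. All animals were ICR mice at postnatal day 2 (P2) of the genotype HCN4H2BGFP, a knock-in reporter that puts a GFP fused to a histone under control of Hcn4, a gene for a pacemaker channel, so every library carried it. There were 3 libraries made with a 10x Genomics kit, 1 per group. The GFP-positive and GFP-negative libraries held node region cells sorted for and against GFP, and the RA library was not sorted. The labels call the last library RA but give its tissue as the sinoatrial node region too, so the name RA is kept here without a tissue. The number of animals in a library was not given in the labels. The sort selects on reporter protein, and a cell with it need not be a pacemaker cell.

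In the embryo Tbx18 and Isl1 are known to mark progenitors that build the venous pole of the heart and the node. Shox2, a homeobox factor, holds down the cardiac factor Nkx2-5 in the node. Tbx3, a T-box repressor, holds down genes of the working atrium such as Nppa and Gja5. Isl1, a LIM homeobox factor, is needed for pacemaker function, and Tbx18, another T-box repressor, acts in the formation of the node head and is also a known gene of the epicardium and of mural cells.

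T-box factors bind DNA through a short site whose letters are AGGTGTGA, or TCACACCT read from the other strand. The 250 bases before the start of Nppa, the best known repressed target, and before the starts of the members are shown to let a reader see where these letters stand. The sequences are from RefSeq on GRCm38.p6, a different build from the mm9 of the counts, and read 5′ to 3′ on the strand of the gene, with matches in capitals. The Nppa window lies at chr4:148000472-148000721 on the plus strand, Shox2 at chr3:66981772-66982021, Tbx18 at chr9:87731261-87731510 and Isl1 at chr13:116309689-116309938, all 3 on the minus strand. Tbx3 had no entry, so 3 of the 4 members matched.
Nppa: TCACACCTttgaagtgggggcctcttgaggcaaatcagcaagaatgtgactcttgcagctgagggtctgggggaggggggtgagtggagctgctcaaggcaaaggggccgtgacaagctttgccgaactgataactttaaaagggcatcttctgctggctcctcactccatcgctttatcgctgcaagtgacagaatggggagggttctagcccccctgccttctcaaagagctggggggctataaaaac
Shox2: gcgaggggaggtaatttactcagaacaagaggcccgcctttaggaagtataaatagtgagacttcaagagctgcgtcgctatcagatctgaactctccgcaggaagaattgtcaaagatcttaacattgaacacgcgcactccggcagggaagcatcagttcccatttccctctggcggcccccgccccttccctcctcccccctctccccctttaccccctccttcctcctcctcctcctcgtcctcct
Tbx18: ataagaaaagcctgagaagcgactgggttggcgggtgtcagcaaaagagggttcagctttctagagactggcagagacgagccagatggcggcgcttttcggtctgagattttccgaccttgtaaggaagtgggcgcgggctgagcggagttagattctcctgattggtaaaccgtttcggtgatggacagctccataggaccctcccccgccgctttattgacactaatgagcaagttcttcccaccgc
Isl1: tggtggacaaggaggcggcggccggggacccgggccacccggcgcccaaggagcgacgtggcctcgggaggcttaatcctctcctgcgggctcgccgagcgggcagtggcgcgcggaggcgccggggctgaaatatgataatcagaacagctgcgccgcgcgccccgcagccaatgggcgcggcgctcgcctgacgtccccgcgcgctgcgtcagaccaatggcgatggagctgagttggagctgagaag
The site stood once in the Nppa window, in the reverse orientation and beginning 250 bases before the start. It was held on either strand by 1.12% of 32851 windows of the same length. The shorter T-box core GTGTGA, which lies within that site, was held by 12.3%, and the homeobox core TAATTA by 4.84%. None of these 3 sets of letters was found in the windows of Shox2, Tbx18 or Isl1. The windows of Gja5, Hcn4, Bmp4 and Nkx2-5, searched in the same way and not shown, held none of them either. The Isl1 window was richest in bases G and C (71.2%) and held 33 CpG dinucleotides, against medians of 52.4% and 6 over all windows.

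The libraries held 50416748 (GFP-positive), 38204709 (GFP-negative) and 19975326 (RA) UMIs, the molecules counted after removal of copies, and 7610 cells were kept. Pairs of libraries shared 8 to 19 barcodes. Cardiomyocytes were cells in which Tnnt2, Myh6, Actc1, Tnni3 and Myl7 made up at least 2% of UMIs, and there were 169, 64 and 73 of them in the GFP-positive, GFP-negative and RA libraries. Only 14 cells lay between 0.5% and this limit, against 65 between it and 4%. All 9 cardiomyocyte markers were read in each of the 3 groups of cardiomyocytes. Cardiomyocytes of the GFP-positive library carried less of the fibroblast marker set (433 UMIs per 1000000, written CPM, against 3091 and 1537) and of the erythroid set (49.9 against 5028 and 16138) than those of the GFP-negative and RA libraries, and more of the epicardial set (128 against 12.3 and 21.1), the endothelial set (489 against 41.4 and 71.1) and the airway epithelial set (365 against 0 in both). The part of these differences in the results was not tested. The other cells were clustered without the members and named from markers, so these class names are rebuilt ones. The 11 marker sets held none for mesothelial cells other than epicardial ones, so the name epicardial may cover both. Clusters 4 and 11 (689 cells, 685 of them GFP-positive) passed 9 endothelial markers each, but had none of them and the neuron marker Stmn2 among their 10 leading genes, and stayed unnamed. Doublets could not be removed, since the caller marked only 0.223% of cells.

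In cardiomyocytes all 4 members were higher in the GFP-positive library than in both others. Shox2 was read in 90.5% of the GFP-positive cardiomyocytes, and Tbx3, Tbx18 and Isl1 in 55.6%, 21.3% and 10.7%. A level is the gene's share of all UMIs from 1 library's cells of that class, with an exact 95% Poisson interval. With 1 library per group there is no replicate spread and no test, and intervals cover counting error only. A gene is called higher or lower where the ratio passes 1.5 times, the interval leaves out equality and the 2 libraries hold at least 10 UMIs together.

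Shox2 stood at 439 CPM (417 to 462) in GFP-positive cardiomyocytes, 6.72 (2.47 to 14.6) in GFP-negative ones and 0 in RA ones. No UMI of Shox2 was seen in the 73 RA cells, which at a floor of 3 UMIs allows a level of up to 2.88 CPM. The GFP-positive level was at least 152-fold higher than that floor (the exact interval of the ratio to RA begins at 124) and 65.4-fold higher (29.96 to 178) than in GFP-negative cardiomyocytes. A GFP-positive cardiomyocyte held a median of 7 Shox2 UMIs and at most 55, and 109 of the 169 cells held 5 or more. With the cardiomyocyte rule at 5% in place of 2%, which kept 88 GFP-positive cells, the Shox2 level was 287. It was 600 in the 46 GFP-positive cells at 2% to 4% and 372 in the 123 above 4%. The highest count in a GFP-negative cardiomyocyte was 2, so the ranges touched only at the low end. The depth differed in the same direction, with median UMIs per cell of 19595, 13294.5 and 10258, and thinning each cell to 5000 UMIs left Shox2 in 79.3% of GFP-positive cardiomyocytes and in 0 of the 49 GFP-negative and 59 RA cells deep enough to be thinned (15 and 14 were left out). In GFP-positive endothelial cells, which should lack it, 2.73% of cells had a Shox2 UMI at a median depth of 11731.

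**Figure D1:**
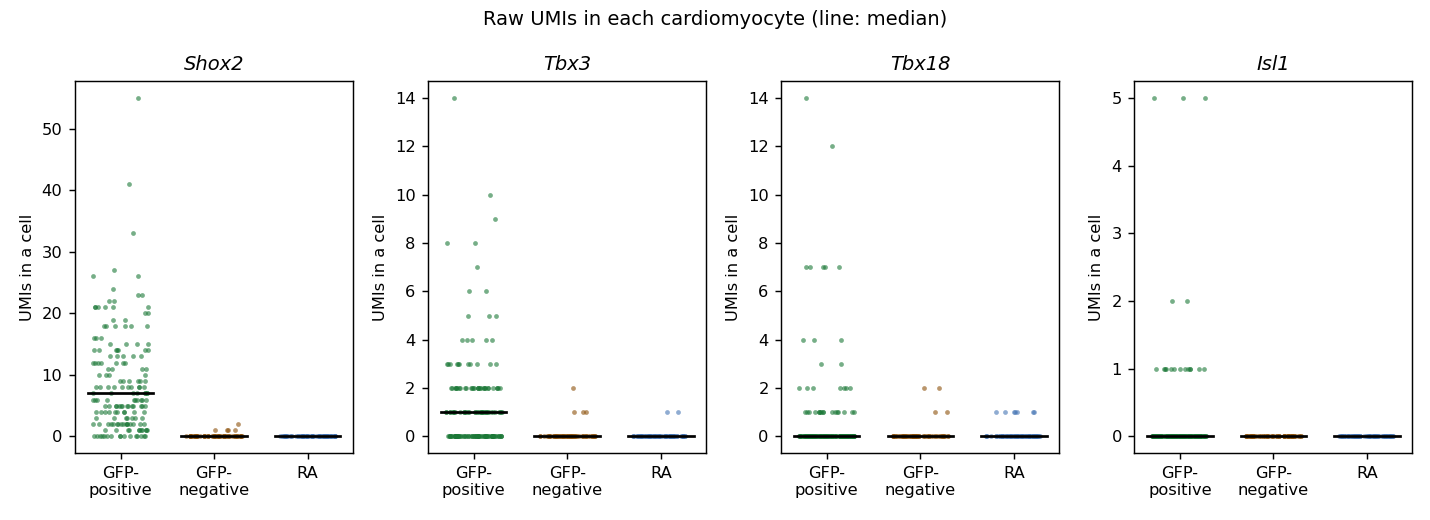
Raw UMIs of each member in single cardiomyocytes by library, 1 point per cell, with the median as a line and a separate vertical scale for each gene. The Shox2 points of the GFP-positive library reach 55, while those of the GFP-negative library end at 2 and all RA points lie at 0.

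Tbx3 stood at 68.4 CPM (59.9 to 77.7) in GFP-positive, 5.60 (1.82 to 13.1) in GFP-negative and 1.92 (0.233 to 6.94) in RA cardiomyocytes. The level was 35.6-fold higher (9.74 to 296) than in RA, where 2 UMIs were read, and 12.2-fold higher (5.16 to 38.0) than in GFP-negative cardiomyocytes. The few Tbx3 UMIs of GFP-negative cardiomyocytes gave a level whose interval overlaps that of the macrophages of that library (4.13, 1.34 to 9.65), while erythroid cells held 0 UMIs, and the part of free RNA was not tested. The antisense transcript Tbx3os1 had 10, 0 and 1 UMIs in the 3 groups of cardiomyocytes. Whether the counting kept strands apart is not given in the sources used here.

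Tbx18 stood at 32.3 CPM (26.5 to 38.9) in GFP-positive cardiomyocytes and at 6.72 in both the GFP-negative (2.47 to 14.6) and RA (2.70 to 13.8) ones. It was 4.80-fold higher against RA (2.25 to 12.2) and also against GFP-negative (2.14 to 13.4). With the rule at 5%, where 1 Tbx18 UMI was left in GFP-negative cardiomyocytes, the log2 ratio to them was 3.99 in place of 2.16. The 7 UMIs of the RA cells lay in 7 different cells. The macrophages of the GFP-negative and RA libraries held 2.48 (0.512 to 7.25) and 3.21 (0.875 to 8.22), intervals that overlap those of the cardiomyocytes, and the part of free RNA was not tested. In the GFP-positive cardiomyocytes 5 cells held 42.7% of the 110 UMIs. Per 1000 epicardial marker UMIs there were 252 Tbx18 UMIs in GFP-positive cardiomyocytes, against 7.55 and 39.1 in the 2 epicardial clusters. The ratio differed between the cardiomyocyte sub-clusters described below, taken over all libraries. It was 22.9 (4.72 to 66.9) in sub-cluster 2, 51.3 (18.8 to 112) in 3 and 153 (81.4 to 262) in 4. In sub-clusters 5 and 6 it was 775 and 1034. The part of the epicardial RNA noted above was not tested.

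Isl1 was read only in GFP-positive cardiomyocytes, at 9.39 CPM (6.42 to 13.3) and 0 in both other libraries. This is at least 3.26-fold higher than RA and at least 2.79-fold higher than GFP-negative at the floor of 3 UMIs, and the exact intervals of the ratios begin at 2.50 and 2.14. The 32 UMIs lay in 18 cells, and 5 of these cells held 59.4% of them. Sub-cluster 6, described below, held 23 of the UMIs. Per 1000 epicardial marker UMIs there were 73.2 Isl1 UMIs in GFP-positive cardiomyocytes, against 12.5 and 0.663 in epicardial clusters 8 and 16. This ratio was 397 in sub-cluster 6, 53.4 (21.5 to 110) in 2, 0 in 3, 11.8 (0.298 to 65.5) in 4 and 25 (0.633 to 139) in 5. The part of epicardial RNA was not tested. For the low members a change in depth moves the share of cells strongly: at 5000 UMIs per cell, Tbx3, Tbx18 and Isl1 were left in 24.9%, 10.7% and 3.55% of GFP-positive cardiomyocytes.

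All 4 members were called higher against RA, where 16.6% of 11320 measured features were, and all 4 against GFP-negative, where 12% of 11310 were. The 2 comparisons share the GFP-positive library. Between the GFP-negative and RA cardiomyocytes only Tbx18 had at least 10 UMIs, at 6.72 in each, and it was not called, where 4.49% of features were called higher and 3.14% lower.

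**Figure D2:**
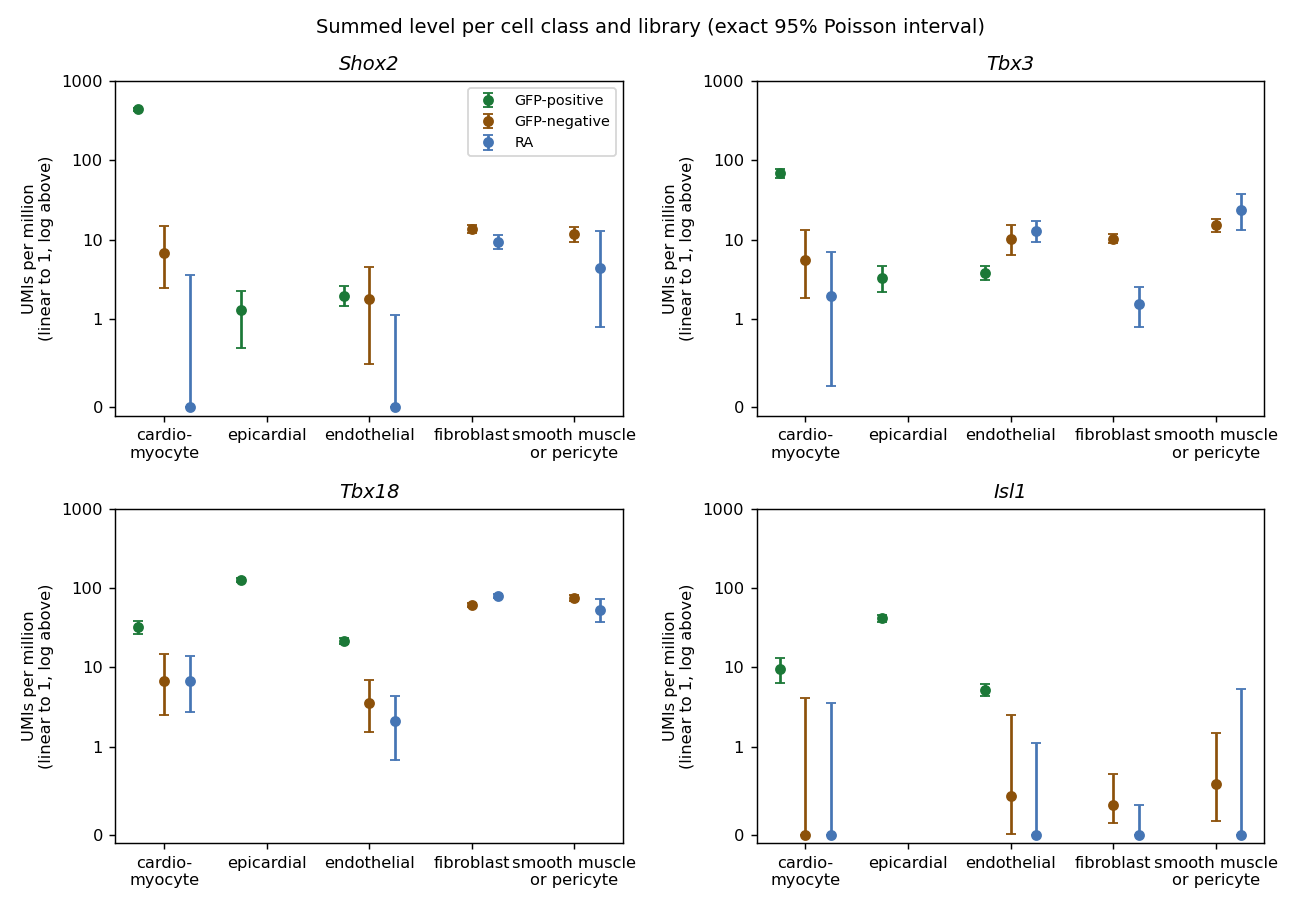
Summed level of each member per cell class and library, in CPM on an axis linear to 1 and logarithmic above, with exact 95% Poisson intervals, for classes of at least 50 cells. Shox2 and Tbx3 are highest in GFP-positive cardiomyocytes (439 and 68.4), and Tbx18 and Isl1 in GFP-positive epicardial cells (125 and 41.8).

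Other genes of the pathway moved in cardiomyocytes by list. Of the node programme, 13 of 15 measured genes were called higher and 0 lower against RA, where 16.6% and 6.09% of all features were. The median log2 ratio was 2.81 beside 0.15 over all features. Against GFP-negative the counts were again 13 and 0, where 12% and 5.31% were, with a median of 2.23 beside 0.12. This list and those below were chosen with earlier results of these data known. The node programme list holds Hcn4, whose reporter was sorted for, so the counts are a description. Smoc2, a matricellular gene, stood at 266 against 2.88 CPM in RA, on 3 UMIs there (log2 ratio 6.31, interval 4.98 to 8.81). Igfbp5, a binding protein of insulin-like growth factors, was 43.2-fold higher (1701 against 39.4), and Cacna2d2, an auxiliary calcium channel subunit, was 18.1-fold higher (260 against 14.4). Hcn4, the gene that drives the reporter, was read at 7.63 against 0, at least 2.65-fold higher. Bmp4, a signal placed downstream of Shox2, was at 33.2 against 2.88, again on 3 UMIs in RA (log2 ratio 3.31, interval 1.94 to 5.82).

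Of 10 atrial genes known to be held down in the node, 6 were called lower and 2 higher against RA. Over all features 6.09% were lower and 16.6% higher. Against GFP-negative 6 were lower and 1 higher, where 5.31% and 12% of features were. The medians of the log2 ratio were -1.64 and -1.33. Nppb and Nppa, both natriuretic peptides, stood at 3.81 and 1704 CPM in GFP-positive cardiomyocytes against 146 and 13884 in RA, a drop of 38.3-fold and 8.15-fold. Bmp10, an atrial growth factor, was 9.27-fold lower. Nkx2-5, the cardiac factor that Shox2 is known to hold down, stood at 200 in GFP-positive, 259 in GFP-negative and 296 in RA cardiomyocytes. It was not called in either comparison.

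Of 20 measured partners and cofactors, 8 were called higher and 1 lower against RA, and 7 and 2 against GFP-negative, where over all features 16.6% and 6.09%, and 12% and 5.31%, were. With the cardiomyocyte rule at 5% both comparisons gave 3 higher and 0 lower. The highest ratios against RA were those of Ldb2, a LIM-domain binding protein (18 UMIs against 0, at least 1.83-fold), Gata5 (15.8 against 1.92 CPM) and Lmo1, a LIM-only protein (7.33 against 0.960). Ldb2 did not hold against GFP-negative, where it was at 5.28 against 5.60. The T-box factor Tbx20, named after its value was seen, was the gene lower against RA (146 against 306). Of the other T-box and LIM homeobox genes only 3 of 23 had enough UMIs. Lhx6 (15 UMIs against 0) and Mga (31.4 against 16.3) were called higher against RA, and none of the 3 was called against GFP-negative. Immediate early and heat shock genes, which rise when tissue is taken apart, were also called higher against RA in 9 of 11 cases beside those 16.6%. Against GFP-negative 6 were called higher and 1 lower, beside those 12% and 5.31%. Against RA Dnajb1 was 3.71-fold higher, Fosb 3.67-fold, Fos 3.22-fold and Atf3 2.98-fold. The part of this dissociation response in the other differences was not tested.

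The GFP-positive cardiomyocytes were not alike in the members. Clustering of the cardiomyocytes without the 4 genes gave 7 sub-clusters, of which 2, 3 and 6 held GFP-positive cells alone and 33 of the 37 cells of sub-cluster 4 were GFP-positive. Sub-clusters 0 and 1, in which GFP-positive cells were 4 of 61 and 1 of 57, both had haemoglobin genes among their leading genes and held Shox2 at 2.52 and 6.58 CPM. Sub-cluster 2 (56 cells, led by Cckar, Calca, Myl2, Cntn2 and Pvalb) had the highest Shox2, at 700 CPM (649 to 753), with Tbx3 at 50.8 and Tbx18 at 2.99. Sub-cluster 3 (40 cells, led by Calca and Thsd7b) had Shox2 at 581 (529 to 636) in every cell, Tbx3 at 70.4 and 0 UMIs of Isl1. Sub-cluster 6 (23 cells, its leading genes including Fmod, Ncan, Pde1a and Tbx18 itself) had less Shox2, at 224 (185 to 269), but the highest levels of Tbx3 (171, 137 to 211), Tbx18 (117, 89.2 to 150) and Isl1 (44.8, 28.4 to 67.2). The intervals of sub-clusters 2 and 3 do not overlap for Shox2, and neither overlaps that of sub-cluster 6.

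In sub-cluster 6 Nppa, Gja5 and Nkx2-5 were at their lowest among the 7 sub-clusters. Nppa stood at 15.6 CPM there, against 1812 in sub-cluster 2 and 119 in sub-cluster 3, and Nkx2-5 at 35.1 against 304 and 204. Bmp4 stood at 97.4 against 9.95 and 36.5. Sub-cluster 4 (led by Acta1, Dlk1 and Adamts8) had Shox2 at 119, Tbx3 at 28.7 and Nppa at 3348. The cycling cells of sub-cluster 5 came from all 3 libraries. Its 12 GFP-positive cells had Shox2 at 410 and Tbx3 at 58.6, while its Tbx18 level of 80.2 there rested on 26 UMIs in 2 cells. The sub-clusters are no samples, and they were clustered from the same cells, so these levels are a description.

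**Figure D3:**
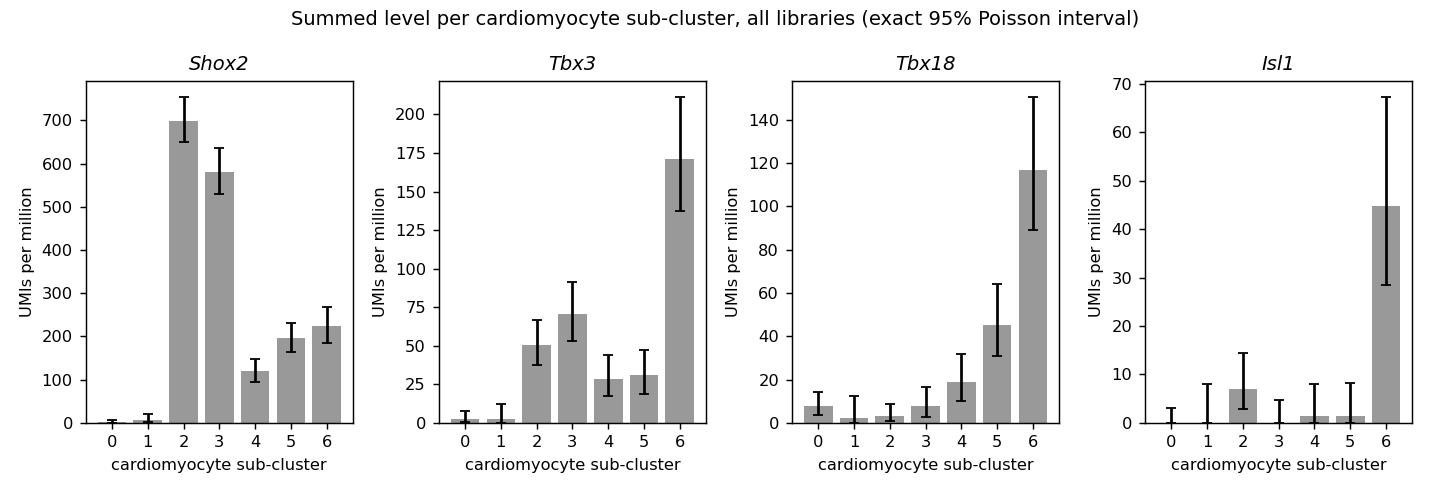
Summed level of each member in the 7 cardiomyocyte sub-clusters over all libraries, in CPM with exact 95% Poisson intervals and a separate axis for each gene. Shox2 peaks in sub-cluster 2 (700), and Tbx3, Tbx18 and Isl1 in sub-cluster 6 (171, 117 and 44.8).

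Among the 169 GFP-positive cardiomyocytes, 9 held UMIs of all 4 members, all in sub-cluster 6, and 11 held none. No Shox2 UMI was read in 16 cells, of which 9 lay in sub-cluster 4. Those 16 held Nppa at 9747 CPM against 887 in the other 153, at median depths of 19725.5 and 19595 UMIs. An Nppa UMI was read in 9 of the 16 and in 54 of the 153, and 3 and 1 of the 16 lay in sub-clusters 0 and 1, where Nppa was at 14508 and 9001. The reporter itself was read in 113 of the 169. Cells with a GFP UMI had Shox2 at 530 (501 to 561) against 255 (226 to 286) in the other 56, and Isl1 at 13.6 (9.23 to 19.3) against 0.889 (0.0225 to 4.95). This look at GFP and at cells without Shox2 was chosen after the levels were seen.

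Pairs of members without Shox2 were read in the same GFP-positive cardiomyocyte more often than their separate shares give. Since Shox2 was read in 153 of the 169 cells, its pairs could hardly leave the product of the shares, and their counts are given with nothing read from them. Shox2 and Tbx3 were both read in 90 cells where the product of the shares gives 85.1, Shox2 and Tbx18 in 34 against 32.6, and Shox2 and Isl1 in 17 against 16.3. Tbx3 and Tbx18 were both read in 29 cells against 20.02, Tbx3 and Isl1 in 16 against 10.0, and Tbx18 and Isl1 in 11 against 3.83. The pairs without Shox2 thus lay 1.45, 1.60 and 2.87 times above independence. At 5000 UMIs per cell those 3 pairs were read in only 5, 5 and 1 cells, against 4.47, 1.49 and 0.639, too few cells to read an excess from. Within sub-cluster 6 Tbx18 and Isl1 were read together in 9 of 23 cells against 7.39, near independence. Cells of 1 library share their source, and depth per cell raises all pairs together.

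**Figure D4:**
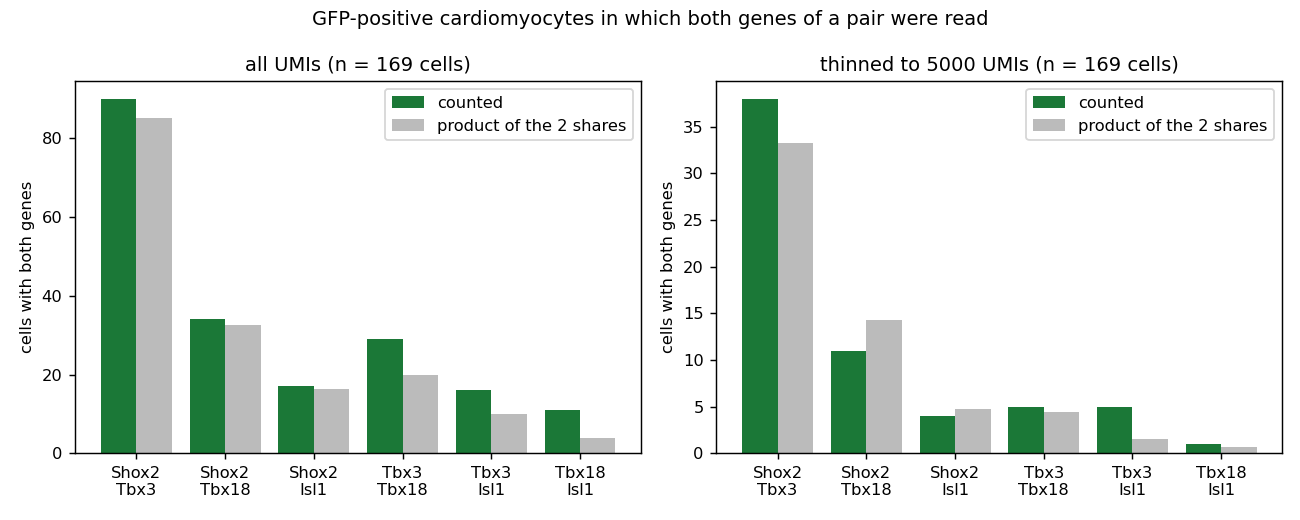
Number of GFP-positive cardiomyocytes in which both genes of a pair were read (green) and the number that the product of the 2 shares gives (grey), from all UMIs and after thinning to 5000 UMIs per cell, 169 cells in each panel. Tbx18 and Isl1 show 11 cells against 3.83 with all UMIs and 1 against 0.639 after thinning.

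Outside the cardiomyocytes each member had its own pattern. Over all libraries together, Shox2 was highest in cardiomyocytes (281 CPM), then fibroblasts (12.2, 10.99 to 13.4) and smooth muscle or pericyte cells (11.2, 9.01 to 13.9), which do not differ beyond counting error. This order came from the GFP-positive library, since fibroblasts stood above cardiomyocytes in GFP-negative (13.5 and 6.72) and RA (9.34 and 0). Tbx3 followed the order of cardiomyocytes (44.9), smooth muscle or pericyte cells (15.9), fibroblasts (7.23, 6.33 to 8.22), endothelial cells (5.21, 4.45 to 6.06) and epicardial cells (3.17, 2.14 to 4.52), and only the intervals of the last pair overlap. Within the other libraries the order of Tbx3 was different, with cardiomyocytes (5.60) under smooth muscle or pericyte cells (15.2), fibroblasts (10.3) and endothelial cells (10.2) in GFP-negative, and with smooth muscle or pericyte cells (23.3) and endothelial cells (12.9) above cardiomyocytes (1.92) and fibroblasts (1.56) in RA. Tbx18 was highest in epicardial cells (124, 117 to 131), then in smooth muscle or pericyte cells (72.0, 66.1 to 78.2) and fibroblasts (67.3, 64.5 to 70.2), whose intervals overlap, then cardiomyocytes (23.0, 19.1 to 27.5) and endothelial cells (18.3, 16.9 to 19.9), which overlap too. Isl1 was highest in epicardial cells (42.2, 38.2 to 46.6), with cardiomyocytes at 5.99 (4.10 to 8.46) and endothelial cells at 4.34 (3.65 to 5.13), whose intervals overlap, all 32 cardiomyocyte UMIs being GFP-positive. The 14 neurons, 13 of them GFP-negative, fell under the 50 cells needed for this order, and they held Isl1 at 279 (235 to 330) and Tbx3 at 130 (100.1 to 165).

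The epicardial cells came almost wholly from the GFP-positive library (519 of 541) and split into a pair of clusters that differed in these genes. Cluster 8 (311 cells, led by Msln and Dmkn) had Isl1 at 69.9 CPM and Tbx18 at 42.2. Cluster 16 (230 cells, led by Msln, Upk3b and Tm4sf5) had Isl1 at 4.03 and Tbx18 at 237. The levels of the epicardial marker set were alike in both (5592 and 6076). Whether either cluster held mesothelial cells from outside the heart was not tested. In the GFP-positive epicardial cells Tbx18 and Isl1 were read together in 78 cells where the product of the shares gives 111, and at 5000 UMIs per cell in 12 against 31.4. Within cluster 8 they were read together in 68 cells against 64.8, and at 5000 UMIs per cell in 10 against 14.7.

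**Figure D5:**
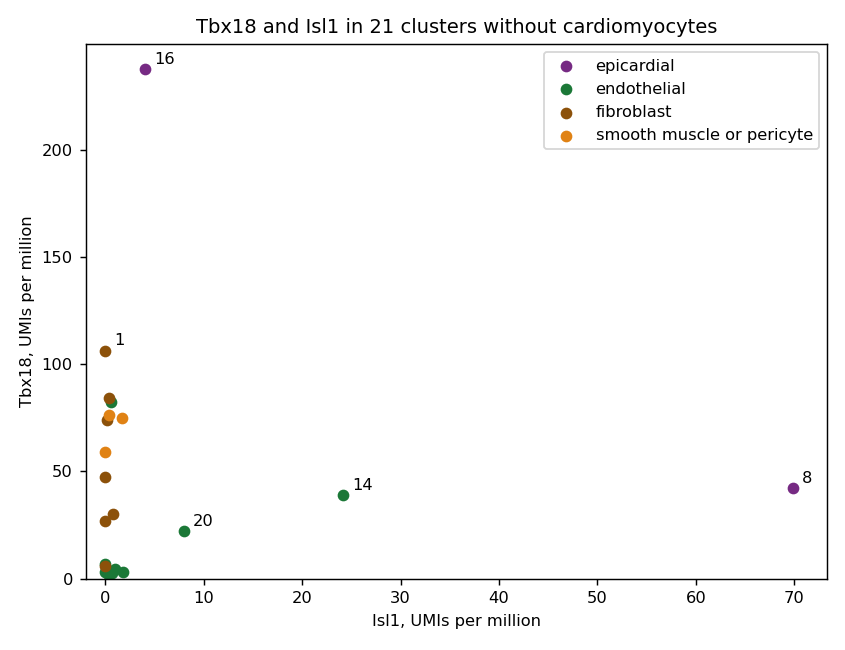
Isl1 (horizontal) and Tbx18 (vertical) level in CPM for 21 clusters of epicardial, endothelial, fibroblast and smooth muscle or pericyte cells, 1 point per cluster over all libraries. Cluster 16 has Tbx18 at 237 with Isl1 at 4.03, cluster 8 Tbx18 at 42.2 with Isl1 at 69.9, and the endothelial cluster 14 is at 38.8 and 24.2.

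Among 9 endothelial clusters the median Tbx18 level was 4.58 CPM. It reached 82.4 in cluster 9 (293 cells, led by Rspo3 and Nppc) and 38.8 in cluster 14 (236 cells, led by Serpina1b and Gkn3), both of the GFP-positive library alone. Cluster 14 also had the highest Isl1 of the endothelial clusters, at 24.2. Epicardial marker UMIs were about as low in cluster 9 (136 CPM) as in cluster 2 (149), where Tbx18 was at 4.58, and the part of epicardial RNA was not tested. Cluster 9 was named endothelial from 9 markers, but none of them was among its 10 leading genes, and with such clusters left unnamed the Tbx18 level of all endothelial cells was 10.9 in place of 18.3. Tbx3 was highest in clusters 10 (21.6, led by Aplnr and Rbp7) and 21 (19.3, led by Rbp7).

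Over the whole endothelial class Tbx3 was lower in the GFP-positive library (3.83 CPM, 3.12 to 4.65) than in RA (12.9, 9.35 to 17.4) and GFP-negative (10.2, 6.45 to 15.3), by 3.37-fold and 2.66-fold. Tbx18 went the other way, at 21.6 against 2.10 and 3.54, as did Isl1, at 5.22 against 0 and 0.443. Shox2 was called higher against RA (1.95 against 0) and not against GFP-negative (1.77), a level at which it was read in 2.73% of GFP-positive endothelial cells. Per 1000 UMIs of the 5 genes of the cardiomyocyte rule, these cells held 4.90 Shox2 UMIs (3.66 to 6.43), against 8.44 in GFP-positive cardiomyocytes. The part of free cardiomyocyte RNA in this call was not tested. The share of features called lower was 7.75% against RA and 5.58% against GFP-negative, and called higher 15% and 12.5%. The libraries filled different endothelial clusters, since in clusters 2, 9, 12, 14, 17, 20 and 21 GFP-positive cells made up all but a few. Cluster 10 alone had at least 50 cells in all 3 libraries. In it Tbx3 stood at 20.7, 18.0 and 25.1 in the GFP-positive, GFP-negative and RA cells and was not called, where 7.78% of features were called lower against RA and 4.46% against GFP-negative, and the other members had too few UMIs to compare.

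In fibroblasts Tbx3 was 6.61-fold higher (4.03 to 11.6) in the GFP-negative library (10.3 CPM) than in RA (1.56), where 10.5% of features were called higher and 6.35% lower. Cluster 22, led by the cartilage-type genes Wif1, Mia and Col9a1, was found in the GFP-negative library in 124 of 126 cells. It held the highest Tbx3 of the fibroblast clusters (37.8), and without it the log2 ratio was 2.44 against 2.69. Cluster 3, which stayed in that ratio, had 445 of 450 cells in GFP-negative and 2 in RA, with Tbx3 at 11.9. Neither cluster had a fibroblast marker among its 10 leading genes. Within clusters that both libraries filled, Tbx3 was higher in clusters 5 (7.05 against 1.51, on 2 UMIs in RA, a ratio of 4.66 with an interval of 1.17 to 40.4) and 7 (16.02 against 3.11), where 3.09% and 7.44% of features were called higher, and was not called in clusters 0 and 1, where 5.21% and 4.46% were. Tbx18 was at 61.2 and 79.2 and Shox2 at 13.5 and 9.34, neither called. Shox2 passed the limit within the clusters that both libraries filled (log2 ratio 0.73 against 0.53) and without cluster 22 (0.60). Taken 1 by 1, it was called higher in cluster 5 (19.4 against 6.05, a ratio of 3.20 with an interval of 1.55 to 7.68). In clusters 0, 1 and 7 Shox2 was not called. In GFP-negative fibroblasts 72.2 Shox2 UMIs came per 1000 UMIs of the 5 rule genes, against 0.117 in GFP-negative and 8.44 in GFP-positive cardiomyocytes, and the part of free cardiomyocyte RNA was not tested. In smooth muscle or pericyte cells Tbx18 was at 74.1 and 52.5 and Tbx3 at 15.2 and 23.3 in GFP-negative and RA cells, neither called, where 6.55% of features were called higher and 10.7% lower, but within cluster 19 (led by Higd1b, Fabp7 and Nrip2) Tbx3 was 49.8 against 23.4 and was called higher, where 3.98% of features were.

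The features most like each member were found by Pearson's r of log levels over 17 class and library units of at least 50 cells. They were Nrsn2 (0.89), Lnx1, Syt1, Ache and Aldh1l2 for Shox2, and Nat14 (0.86), Arhgef7, Lclat1, Fbxl17 and Filip1 for Tbx3. For Tbx18 they were Cacnb3 (0.93), Sema5a, Serp2, Aldh1a1 and Smarca1, and for Isl1 Dmkn (0.95), Wfdc2, Msln, Col4a4 and Anxa8. The units share libraries, and no p is given. The features named for Shox2 stood at 10.6 to 14.7 CPM in 1 unit, the GFP-positive cardiomyocytes, where Shox2 was at 439. In every other unit they were at 5.60 or less, and the weight of that 1 unit in r was not tested. The features named for Isl1 were highest in GFP-positive epicardial cells, then in the cardiomyocytes and endothelial cells of that library. Dmkn stood at 1210, 27.0 and 26.8 CPM in these units, and Wfdc2 at 41.8, 24.6 and 24.7. In every other unit the features named for Isl1 were at 3.86 or less. The part of RNA shared within that library was not tested. Over the 169 GFP-positive cardiomyocytes the leading features were Igfbp5 (0.62), Cpne5, Calca, Mgmt and Ntm for Shox2, and Tenm4 (0.49), Vsnl1, Rec114, Fitm1 and Sfrp5 for Tbx3. They were Pum3 (0.50), Tenm4, Tuba4a, Atp2a2 and Cdo1 for Tbx18, and Cdo1 (0.40), Ccdc167, Cystm1 and Tbx3 were among those for Isl1, which was in fewer than 20% of those cells and was added outside the rule for features. Between the members r was 0.34 for Tbx3 and Isl1, 0.33 for Tbx18 and Isl1, 0.29 for Tbx3 and Tbx18, and -0.19 for Shox2 and Tbx18. Many of these counts are 0 or 1, and depth is shared by all genes of a cell.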

How the data were processed

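The deposited files hold raw UMI counts, a whole number for each gene in each barcode. Cell Ranger and mm9 are named in the submitters' processing notes, with no version. The 3 matrices were summed per cell class and library. Barcodes under 500 genes or over 50% mitochondrial UMIs were left out, and Scrublet marked 17 of 7610, so doublets stay among the cells. Clustering used Python 3.11.15, scanpy 1.11.5 and igraph 0.11.9, with 2000 variable genes, without the members and 2 antisense transcripts of Tbx3, 30 principal components (20 for cardiomyocytes), 15 neighbours and Leiden resolution 1. Clusters were named by the marker list of greatest average log2 fold, if at least 3 markers passed (20% of cells, 2 times the median cluster) and no other set had more markers among the 10 leading genes. A first naming run also asked for 1 own marker among the 10, which left 1602 cells unnamed. This condition was dropped after its result was seen and before member levels by class were computed, leaving 689 unnamed, and the first rule is reported as an alternative.

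Log2 ratios add 0.5 UMIs to each sum. Ratio intervals are exact conditional binomial and share intervals exact Clopper-Pearson (95%). A level of 0 is set against a floor of 3 UMIs per class and library. The members and lists were chosen with earlier results of these data known, and the clusters and sub-clusters picked for co-detection, the split by GFP and the epicardial ratios were chosen after their levels were seen. In each list the 4 called genes with the largest absolute log2 ratio against RA are named, plus Hcn4, Bmp4, Nkx2-5 and Nppa, and per member the features with the highest r. Some genes that this rule takes are not reported here, and the counts over lists include them. Ratio calls were tested on simulated Poisson sums, with changes set only in features of at least 50 UMIs. These sums hold no spread between cells or libraries, so they cannot show how the calls fare under such spread. All intervals cover counting error only.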

Additional observations from a re-analysis of the deposited data

Results flagged for a closer look

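Tbx3 moved in opposite directions under the same contrast in different cell classes. Against RA its log2 ratio was 4.83 in cardiomyocytes and -1.76 in endothelial cells, and against GFP-negative it was 3.48 and -1.44. The difference between the classes was not tested, and within endothelial cluster 10 Tbx3 was not called.

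The reporter feature GFP was not part of the comparisons and was read at 128 CPM in GFP-positive cardiomyocytes against 0 in RA ones. In GFP-positive endothelial cells it stood at 43.0 against 0.901.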

How the results depend on the processing

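No paired analysis was possible because each group is 1 library. All 61 log2 ratios of the members between cardiomyocytes recomputed under alternatives stayed above 0 (1.54 to 9.89). The alternatives reuse cells of the same 3 libraries. Shox2 and Isl1 had 0 UMIs in RA and Isl1 0 in GFP-negative cardiomyocytes, so those signs could hardly turn. In GFP-positive cardiomyocytes the Shox2 level was 287 with the cardiomyocyte rule at 5%, 465 without the top 5% of doublet scores, 463 as a mean over cells and 499 with haemoglobin and mitochondrial UMIs left out of the total. Under the 5% rule Tbx18 was at 39.9 and Isl1 at 13.5, and the Tbx18 log2 ratio against GFP-negative was 3.99. Thinned to 5000 and 2000 UMIs, Shox2 was read in 79.3% and 47.9% of these cells, Tbx3 in 24.9% and 11.8%, Tbx18 in 10.7% and 3.55%, and Isl1 in 3.55% and 1.18%.

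At 2000 UMIs the counted over independent pairs were 1.36 for Shox2 and Tbx3, 0.348 for Shox2 and Tbx18, 0 for Shox2 and Isl1, 4.23 for Tbx3 and Isl1 (3.35 at 5000) and 14.1 for Tbx18 and Isl1, the last from 1 cell. List counts also moved. Partners higher against RA were 4 at a limit of 2 times and 3 under the 5% rule, which left 0 lower, and against GFP-negative 3 higher under the 5% rule and 0 lower under both. Other T-box and LIM genes higher against RA were 1 at 2 times, with at least 50 UMIs, under the 5% rule and without the top doublet scores. Repressed atrial genes higher against GFP-negative were 0 at 2 times and under the 5% rule. Stress genes higher against GFP-negative were 3 at 2 times, those lower 0 at 2 times, under the 5% rule, in cells low in haemoglobin and matrix RNA and without the top doublet scores, and 1 was lower against RA without those scores.

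At Leiden resolution 0.5 endothelial Tbx3 was 4.38 and Isl1 3.51. The remaining alternatives were chosen after seeing the data. Under the stricter naming fibroblast Tbx3 was 5.03 and Tbx18 77.6, and endothelial Tbx18 10.9. The fibroblast log2 ratio of Shox2 became a call at 0.73 within shared clusters and under the stricter naming and at 0.60 without cluster 22, and that of Tbx18 was -0.065 under the first pair. Within endothelial cluster 10, Tbx3 was not called against RA (-0.27) or GFP-negative (0.20). Tbx18 (1.58 and -0.64) and Isl1 (0.36 and -1.57) had at most 5 UMIs in a library there, so no size or sign is read from their values. The cause was not tested.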

Other observations

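The 28 airway epithelial cells, which all came from the GFP-positive library, held Isl1 at 19.4 CPM (11.7 to 30.2), read in 12 cells, and no UMI of Tbx3. Tbx3os1, the antisense transcript of Tbx3, stood at 11.04 CPM in GFP-negative smooth muscle or pericyte cells and 37.9 in RA ones, while Tbx3 was at 15.2 and 23.3. Cluster 19 of this class held 116 GFP-negative and 51 RA cells. Within it Tbx3os1 went the other way, at 63.8 and 40.6, and was not called, where 3.98% of features were called higher. Whether reads of the 2 strands were kept apart is not given in the sources used here, so the 2 transcripts may not be told apart.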
